A study of Mus musculus with 12 samples.

Results

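The genes described here encode the pore-forming subunits of AMPA-type glutamate receptors (*Gria1*, *Gria2*, *Gria3* and *Gria4*) and the auxiliary subunits that ride with them in hippocampal neurons (*Cacng2*, *Cacng3*, *Cacng8*, *Cnih2*, *Cnih3* and *Shisa9*). They were chosen by name for their role, and all 10 were found among the 37991 genes counted. Poly(A) RNA-seq was done on hippocampi of 12 mice, dissected 1 h after passive avoidance (PA), an aversive training in which a mouse learns not to enter a dark compartment. One group of 6 libraries is labelled Wildtype and the other group of 6 Gadd45a-KO. All animals were C57BL/6N siblings from crosses of heterozygous *Gadd45a*-deficient parents, were 6 to 7 months old per the labels, and underwent PA, so no untrained group enters the comparison. In the knockout line a neomycin resistance cassette driven by the PGK promoter takes the place of exons at the 5′ end of *Gadd45a* in every cell, the last exon remains, and counts per gene do not separate the exons. The comparison asks whether RNA of the AMPA receptor genes differs between both labels shortly after training.

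AMPA receptors are tetramers of the GluA1 to GluA4 proteins and carry most of the fast excitatory current at central synapses. The GluA2 subunit keeps calcium out of the pore, because the enzyme ADAR2 edits its RNA so that a glutamine codon (Q) in the pore loop is read as arginine (R). Auxiliary subunits, the transmembrane AMPA receptor regulatory proteins (TARPs, encoded by *Cacng* genes), cornichons and Shisa proteins, set how receptors leave the endoplasmic reticulum, how they are held at the synapse and how fast they close, and the supply of receptors to synapses is a main way in which hippocampal synapses are strengthened.

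The Q/R site shows how closely the pore subunits are related at the position that sets GluA2 apart. The sequences below are 30 bases of the NCBIM37 reference genome, read along the coding strand of a coding exon, with the codon at the Q/R site in capitals. They are genomic and so stand for the unedited RNA.
Gria1: ggggccttcatgCAGcaaggatgtgacatt
Gria2: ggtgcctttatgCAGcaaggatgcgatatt
Gria3: ggtgcttttatgCAGcaaggatgtgatatt
Gria4: ggtgcctttatgCAAcaaggatgtgacatt
The windows lie at chr11:57056584-57056613 on the plus strand, chr3:80510818-80510847 on the minus strand, chrX:38963430-38963459 on the plus strand and chr9:4464122-4464151 on the minus strand, in that order. Against *Gria2*, the *Gria1* window differs at 4 bases, the *Gria3* window at 2 and the *Gria4* window at 3. All 4 genes encode glutamine there in the genome, with CAG in 3 of them and CAA in *Gria4*. Counts per gene do not show what share of the RNA was edited.

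The 12 libraries held from 44594261 to 55540601 reads counted in genes. Levels are given as CPM, the reads of a gene relative to its library's reads in genes that passed the filter on low counts. They were scaled between libraries by the trimmed mean of M values (TMM). *Gadd45a* went against the labels: the libraries labelled Wildtype had 2.58 ± 0.481 CPM (SD, n = 6) and those labelled Gadd45a-KO 21.4 ± 1.07 CPM (SD, n = 6), a log2 fold change of 3.06 (SE 0.09, edgeR adjusted p = 1.33e-10). Directions below are therefore those of the labels only, as labelled Gadd45a-KO relative to labelled Wildtype. The share of alignments that fell in no annotated gene was 12.64% to 13.9% in the libraries labelled Wildtype and 11.5% to 12.57% in those labelled Gadd45a-KO, with no overlap, and its part in the results was not tested. Markers of pyramidal, granule and interneurons were present in every library. Reads of 7 thalamic neuron markers summed to 94.1 to 137 CPM in the libraries labelled Wildtype and 99.0 to 472 CPM in those labelled Gadd45a-KO, with replicates 2 and 3 of the latter at 318 and 472 CPM.

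Per kb of annotated exon, *Cnih2* and *Gria1* had the highest levels of the 10 genes. *Cnih2*, a cornichon that carries receptors out of the endoplasmic reticulum and slows their closing, averaged 252 CPM per kb over the 12 libraries. *Gria1*, the subunit whose delivery to synapses accompanies their strengthening, averaged 244 CPM per kb, and the ranges of both genes overlapped. *Gria2* followed at 148 CPM per kb, with a range that overlapped that of *Cacng8* (101 CPM per kb), the TARP typical of hippocampus. *Cacng3* at 31.7 and *Gria3* at 29.3 CPM per kb were again not separated by their ranges. *Cnih3* (19.4 CPM per kb) stood apart from its neighbours on both sides. At the low end the range of *Cacng2* (12.8 CPM per kb), the gene mutated in stargazer mice, reached that of *Gria4* (9.58), which overlapped that of *Shisa9* (9.38). *Cacng8* and *Shisa9* are annotated without a 3′ untranslated region, over 663 and 1275 bases of exon, and whether their coding sequence is complete was not checked. Reads outside annotated exons are not counted, so levels per kb of both genes are less comparable with those of the other genes.

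**Figure D1:**
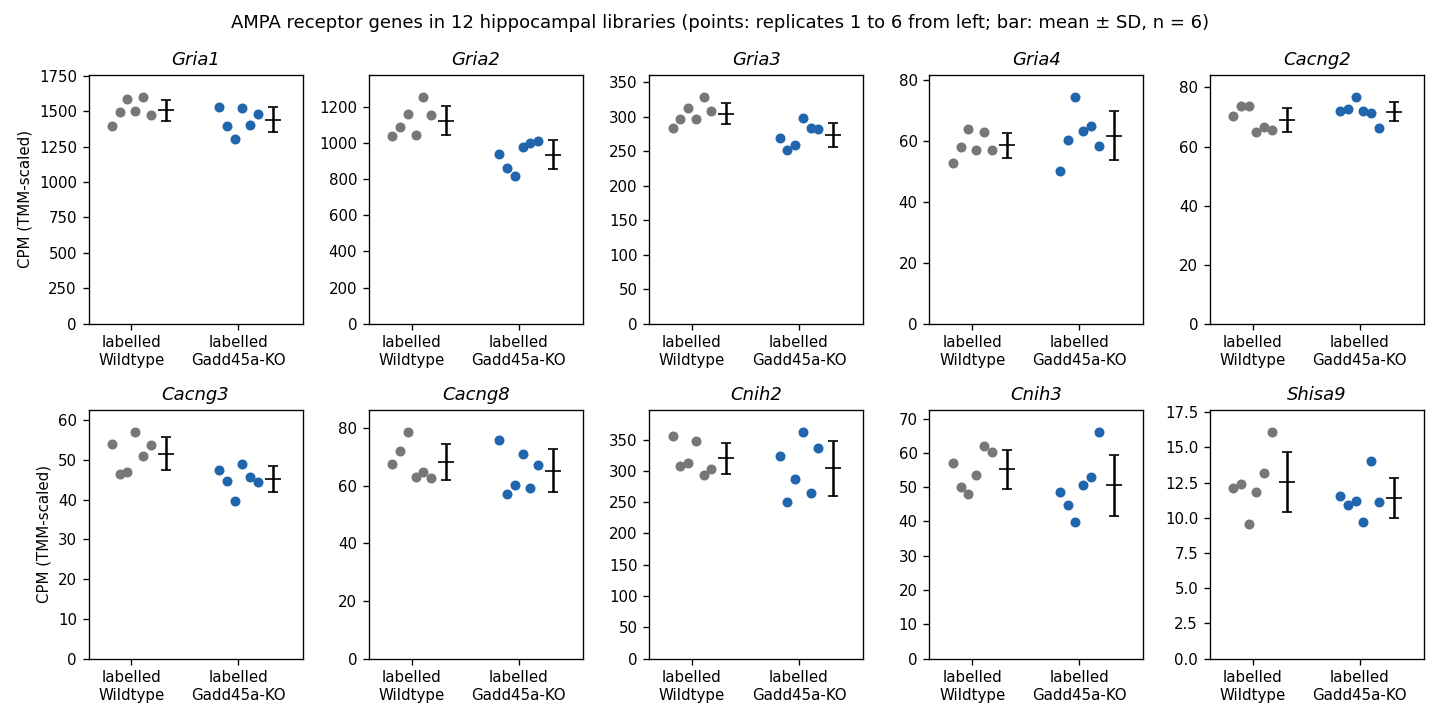
Each panel plots 1 gene, with TMM-scaled CPM on a linear axis from 0, a point for each of the 12 libraries and the mean ± SD (n = 6) of each label beside it. The points of *Gria2* do not overlap between labels (lowest 1038 CPM in libraries labelled Wildtype, highest 1012 CPM in those labelled Gadd45a-KO), while those of the other 9 genes do.

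Of the pore subunits, *Gria2* had the largest difference between the labels. The gene lies at chr3:80488858-80606713 on the minus strand. In the libraries labelled Wildtype *Gria2* ranged from 1038 to 1251 CPM with a median of 1121 CPM, and in those labelled Gadd45a-KO from 815 to 1012 CPM with a median of 959 CPM. Every library labelled Wildtype was above every library labelled Gadd45a-KO, and the lowest values of all were in replicates 3 and 2 of the latter. Means were 1123 ± 82.0 and 934 ± 79.2 CPM (SD, n = 6 each). The log2 fold change was -0.27 (SE 0.06, 95% interval -0.40 to -0.13), an estimate 16.8% below the libraries labelled Wildtype. Its adjusted p of 0.0201 by edgeR's quasi-likelihood test, over all 16399 genes tested, passed 5% and missed the 1% false discovery rate (FDR) used here. Of all tested genes 3.12% had labels that did not overlap in this direction, and 0.183% in the other.

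That call depended on the test, on an offset for exon length and on single libraries. *Gria2* passed 1% with DESeq2 (log2 fold change -0.26, adjusted p = 0.00152) and with the steps of the original DESeq (adjusted p = 0.00396). Annotated exon length is at the 85.7th percentile of tested genes for *Gria2*. With an offset for it, *Gria2* missed 5% FDR (log2 fold change -0.23, edgeR adjusted p = 0.0673). *Gria2* also missed it with that offset and a block on replicate number (edgeR adjusted p = 0.0556). In the 12 fits that left out 1 library each its log2 fold change ran from -0.28 to -0.22 and its edgeR adjusted p from 0.0187 to 0.0666. In 5 of them it missed 5% FDR, those without Wildtype replicate 3 (0.0604), 5 (0.0666) or 6 (0.0534) and those without replicate 1 (0.0527) or 2 (0.0607) labelled Gadd45a-KO. Without replicates 2 and 3 labelled Gadd45a-KO, which had the most reads of thalamic markers, it was -0.19 (edgeR adjusted p = 0.105), and the remaining values of 940 to 1012 CPM still lay below all libraries labelled Wildtype. In bulk tissue, fewer cells of a type and less RNA per cell cannot be told apart. The paper states that with poly(A) selection read coverage can fall with distance from the 3′ end of a transcript. Coverage along *Gria2* was not analysed here, so a lower count per gene need not mean fewer transcripts.

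*Gria3* encodes a subunit that pairs mainly with GluA2 in receptors that cycle steadily through the synapse, and lies at chrX:38754031-39031778 on the plus strand. It ranged from 284 to 328 CPM (median 302) in the libraries labelled Wildtype and from 251 to 297 CPM (median 275) in those labelled Gadd45a-KO. The ranges overlapped, with most libraries labelled Gadd45a-KO under the lowest library labelled Wildtype. The log2 fold change was -0.15 (SE 0.05, 95% interval -0.25 to -0.05), and edgeR's adjusted p of 0.0925 missed both thresholds. With an offset for annotated exon length, which is at the 95.2th percentile of tested genes for *Gria3*, the log2 fold change was -0.07 (edgeR adjusted p = 0.548), and without the pair of libraries rich in thalamic markers it was -0.10 (edgeR adjusted p = 0.489).

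*Gria1* (chr11:56824889-57143746, plus strand) ranged from 1394 to 1597 CPM (median 1497) in the libraries labelled Wildtype and from 1304 to 1531 CPM (median 1440) in those labelled Gadd45a-KO. The labels overlapped over most of their range. The log2 fold change was -0.07 (SE 0.05, 95% interval -0.17 to 0.04, edgeR adjusted p = 0.629). That interval bounds a higher level in the libraries labelled Gadd45a-KO at 0.04 on the log2 scale. Without the pair of libraries rich in thalamic markers the log2 fold change of *Gria1* was -0.02. *Gria4* (chr9:4417899-4796234, minus strand), which in hippocampus is carried chiefly by interneurons, ranged from 52.7 to 63.6 CPM (median 57.5) in the libraries labelled Wildtype and from 49.9 to 74.1 CPM (median 61.5) in those labelled Gadd45a-KO. The lowest and the highest library both carried the Gadd45a-KO label, and the highest was replicate 3. The log2 fold change of *Gria4* was 0.08 (SE 0.08, 95% interval -0.09 to 0.24, edgeR adjusted p = 0.770). It was 0.02 without replicate 3 labelled Gadd45a-KO and 0.0098 without replicates 2 and 3.

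Of the 3 TARP genes among the 10, *Cacng3* had the largest log2 fold change in size. *Cacng3* (chr7:129815258-129912905, plus strand), a TARP that like its relatives anchors receptors to the postsynaptic scaffold, ranged from 46.4 to 57.0 CPM (median 52.4) in the libraries labelled Wildtype and from 39.6 to 48.9 CPM (median 45.2) in those labelled Gadd45a-KO. Both ranges overlapped at their edges. Its log2 fold change was -0.19 (SE 0.06, 95% interval -0.32 to -0.07, edgeR adjusted p = 0.0997), and without the pair of libraries rich in thalamic markers -0.14 (edgeR adjusted p = 0.404). Libraries of equal replicate number were also blocked, a number that no source ties to a shared litter or batch. In that fit *Cacng3* had an edgeR adjusted p of 0.00977 and was the 1 gene of the 10 called at 1% FDR, with 3.1% of tested genes called lower. With the exon length offset added to the block, *Cacng3* missed 1% FDR (edgeR adjusted p = 0.0138).

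*Cacng8* (chr7:3394567-3415366, plus strand) ranged from 62.7 to 78.5 CPM (median 66.2) in the libraries labelled Wildtype and from 57.2 to 76.0 CPM (median 63.8) in those labelled Gadd45a-KO. Its labels overlapped over most of their range, with a log2 fold change of -0.06 (95% interval -0.22 to 0.10, edgeR adjusted p = 0.813) that was 0.0060 without the pair of libraries rich in thalamic markers. *Cacng2* (chr15:77822178-77950458, minus strand) ranged from 64.8 to 73.8 CPM (median 68.5) in the libraries labelled Wildtype and from 66.4 to 76.6 CPM (median 72.0) in those labelled Gadd45a-KO. Here too the labels overlapped, and *Cacng2* had the narrowest interval of the 3 TARP genes, with a log2 fold change of 0.06 (95% interval -0.04 to 0.15, edgeR adjusted p = 0.659) that was 0.03 without that pair of libraries.

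For the cornichons and *Shisa9* the libraries of one label were widely spread. *Cnih2* (chr19:5092871-5098418, minus strand) ranged from 294 to 356 CPM (median 310) in the libraries labelled Wildtype and from 250 to 362 CPM (median 305) in those labelled Gadd45a-KO. The latter range held the former in full, and the log2 fold change of -0.07 (95% interval -0.26 to 0.11, edgeR adjusted p = 0.808) was 0.0083 without the pair of libraries rich in thalamic markers. *Cnih3* (chr1:183282759-183390772, plus strand), the other neuronal cornichon, ranged from 48.1 to 62.2 CPM (median 55.3) in the libraries labelled Wildtype and from 39.9 to 66.1 CPM (median 49.6) in those labelled Gadd45a-KO. Again the second range held the first, with a log2 fold change of -0.13 (95% interval -0.35 to 0.09, edgeR adjusted p = 0.671) that was -0.06 without replicate 3 labelled Gadd45a-KO and -0.02 without the pair of libraries rich in thalamic markers. *Shisa9* (chr16:11984674-12267896, plus strand), also called CKAMP44 and known from dentate granule cells, where it slows recovery of receptors from desensitization, had 9.53 to 16.1 CPM (median 12.3) in the libraries labelled Wildtype and 9.67 to 14.0 CPM (median 11.2) in those labelled Gadd45a-KO. Those values rest on 470 to 805 reads per library, and the labels overlapped in full, with a log2 fold change of -0.14 (95% interval -0.37 to 0.10, edgeR adjusted p = 0.681).

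Counted together, 0 of the 10 genes passed 1% FDR in either direction by edgeR, against 2.62% of all tested genes in the lower direction, 0.0244% in the higher and 2.65% in either. All 10 passed the filter on low counts. At an unadjusted p under 0.05 the count was 3 (*Gria2*, *Gria3* and *Cacng3*, all with negative log2 fold changes), against 13.7% of all tested genes in either direction. DESeq2 called 1 at 1% FDR, with 3.77% of its genes called lower, and the steps of the original DESeq called 1, with 1.54%. The one gene was *Gria2* in both, and it was also the only one at 5% FDR by edgeR, where 4.43% of tested genes were called lower and 0.122% higher. Log2 fold changes were below 0 for 8 of the 10 genes, against 48.2% of all tested genes, and for 6 of 10 without the pair of libraries rich in thalamic markers, where *Cacng8* and *Cnih2* lay just above 0. The median log2 fold change of the 10 genes was -0.10, and that of all tested genes 0.0033.

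**Figure D2:**
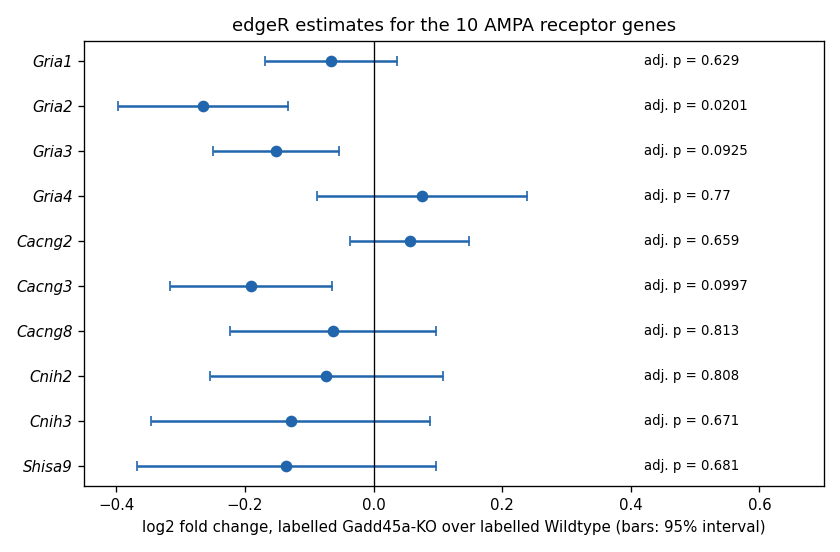
Points give the edgeR log2 fold change of each of the 10 genes, labelled Gadd45a-KO over labelled Wildtype, on the horizontal axis, bars give the 95% interval, and adjusted p-values over all tested genes stand at the right. Intervals of *Gria2*, *Gria3* and *Cacng3* lie below 0 (*Gria2* at -0.40 to -0.13), and the other 7 include 0.

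Because the pore subunits share 1 receptor, their make-up was also described per library. As a share of *Gria1* to *Gria4* CPM per kb, *Gria2* made up 34.3% to 37.0% (median 35.6%) in the libraries labelled Wildtype and 31.6% to 34.6% (median 32.2%) in those labelled Gadd45a-KO. *Gria1* took 54.1% to 56.8% (median 55.5%) and 56.0% to 59.8% (median 58.2%). Both pairs of ranges touched, with *Gria2* low and *Gria1* high in the libraries labelled Gadd45a-KO. *Gria3* made up a median of 6.84% and 6.81%, and *Gria4* a median of 2.07% and 2.39%. The ratio of *Gria2* to *Gria1* reads was 0.695 to 0.787 (median 0.739) in the libraries labelled Wildtype and 0.614 to 0.710 (median 0.633) in those labelled Gadd45a-KO, where replicate 5 alone lay above the lowest library labelled Wildtype. These shares were not tested.

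**Figure D3:**
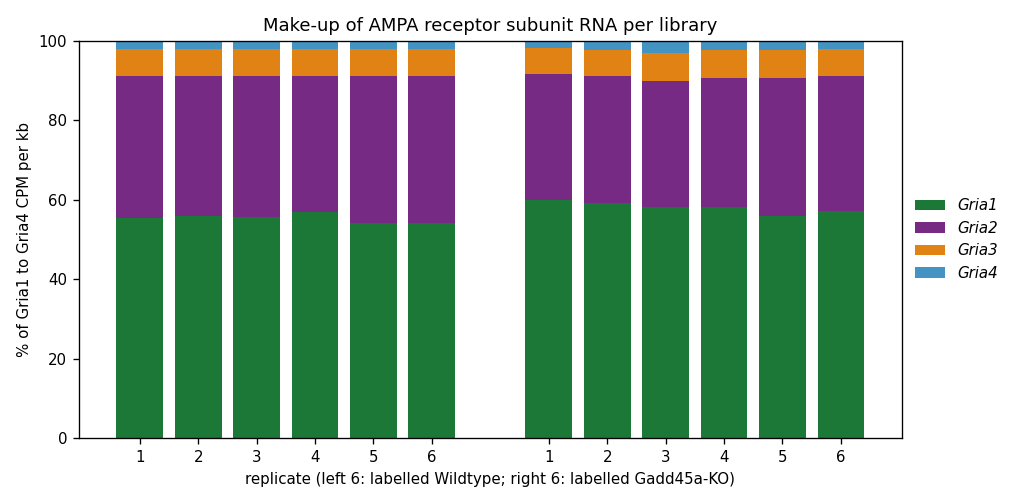
Stacked bars give the share of each pore subunit gene in the summed CPM per kb of *Gria1* to *Gria4* (vertical axis, percent), with 1 bar per library, the 6 labelled Wildtype at the left and the 6 labelled Gadd45a-KO at the right. *Gria1* and *Gria2* fill most of every bar, with median *Gria2* shares of 35.6% and 32.2%.

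Of the summed CPM per kb of the 3 TARP genes among the 10, *Cacng8* made up a median of 68.0% in the libraries labelled Wildtype and 69.9% in those labelled Gadd45a-KO, *Cacng3* 23.5% and 20.8%, and *Cacng2* 8.40% and 9.17%. Other *Cacng* genes were expressed and do not enter these shares. The shares depend on the short annotated length of *Cacng8*: without division by length the mean over all 12 libraries was 35.9% for *Cacng8* and 38.1% for *Cacng2*. Of the pair of cornichon genes *Cnih2* made up a median of 93.2% and 93.0%, so *Cnih3* was the minor one under both labels.

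Beyond the labels, *Gria1*, *Gria2* and *Gria3* varied together from library to library. Correlations of log2 CPM were taken over the 12 libraries after the mean of each label had been removed, and they are descriptions, since the points share libraries, sequencing depth, base composition and any difference in dissection. *Gria2* and *Gria3* had the highest of the 45 correlations (Pearson's r = 0.88), and it was 0.86 over the 10 libraries left without replicates 2 and 3 labelled Gadd45a-KO. *Gria1* followed *Gria2* (r = 0.74) and *Gria3* (r = 0.71), with 0.50 and 0.60 over the 10 libraries. *Gria4* had r = -0.25 with *Gria1*, -0.06 with *Gria2* and 0.22 with *Gria3* over all 12 libraries, and 0.26, 0.64 and 0.80 over the 10. The lowest correlation was that of *Cacng2* with *Cnih3* (r = -0.82, and -0.78 over the 10 libraries). Of all 45 pairs 7 exceeded 0.5, 4 were below -0.5, and the median was 0.20. Over the 10 libraries 7 exceeded 0.5, 6 were below -0.5, and the median was -0.08.

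**Figure D4:**
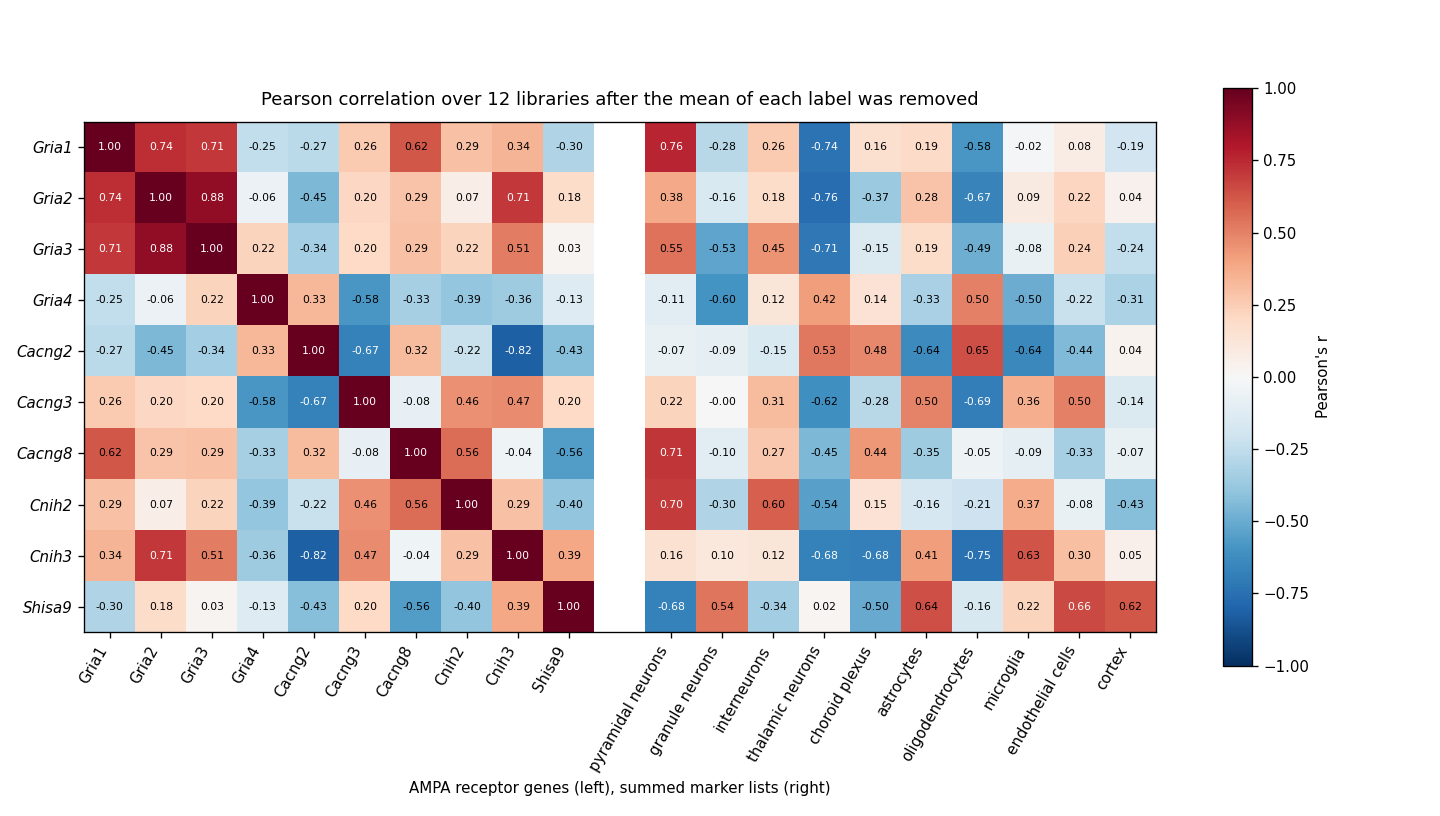
The colour scale and printed values give Pearson's r of log2 CPM over 12 libraries, each label's mean removed, among the 10 genes (left block) and between each gene and the summed markers of 10 cell types or regions (right block). The block of *Gria1*, *Gria2* and *Gria3* runs from 0.71 to 0.88, and the same 3 genes have values of -0.76 to -0.71 with the thalamic markers.

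The summed marker lists moved with several of the genes. With 5 markers of pyramidal neurons, r over the 12 libraries was 0.76 for *Gria1*, 0.71 for *Cacng8* and 0.70 for *Cnih2*, and -0.68 for *Shisa9*. Over the 10 libraries these values were 0.76, 0.63, 0.63 and -0.82. Other lists reached values of like size. The choroid plexus markers had 0.73 for *Gria1* and 0.77 for *Cacng8* over the 10 libraries (0.16 and 0.44 over the 12). The oligodendrocyte markers had -0.75 for *Cnih3* and -0.67 for *Gria2* over the 12 libraries (-0.69 and -0.44 over the 10). *Shisa9* had 0.66 with the endothelial markers over the 12 libraries and 0.67 over the 10. The pyramidal sum itself was 621 to 787 CPM in the libraries labelled Wildtype and 554 to 848 CPM in those labelled Gadd45a-KO. With the 7 thalamic markers, all of them detected in every library, r was -0.74 for *Gria1*, -0.76 for *Gria2*, -0.71 for *Gria3* and 0.42 for *Gria4*, and over the 10 libraries -0.50, -0.28, -0.57 and -0.43. The libraries with the most thalamic marker reads were also the lowest in *Gria2* and included the lowest in *Gria1*, and replicate 3 labelled Gadd45a-KO held 5713 CPM of 4 oligodendrocyte markers, against 1849 to 2885 CPM in the libraries labelled Wildtype. Of the 45 matched markers of all lists, 0 passed 1% FDR between the labels by edgeR, by DESeq2 or by the original DESeq steps. An unadjusted edgeR p under 0.05 was found for 12 of the 45, a larger share than the 13.7% of all tested genes. All 4 oligodendrocyte markers were among them, with log2 fold changes of 0.39 to 0.49. So were *Tcf7l2*, *Zic1*, *Slc17a6*, *Prkcd* and *Lef1* of the thalamic list (0.77 to 1.56). *Gfap* and *Aldh1l1* of the astrocyte list were higher too, and *Rasgrf2* of the cortex list was lower. The thalamic list was chosen from markers known to vary in these libraries. The part of these cell types in the levels of the AMPA receptor genes was not tested.

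**Figure D5:**
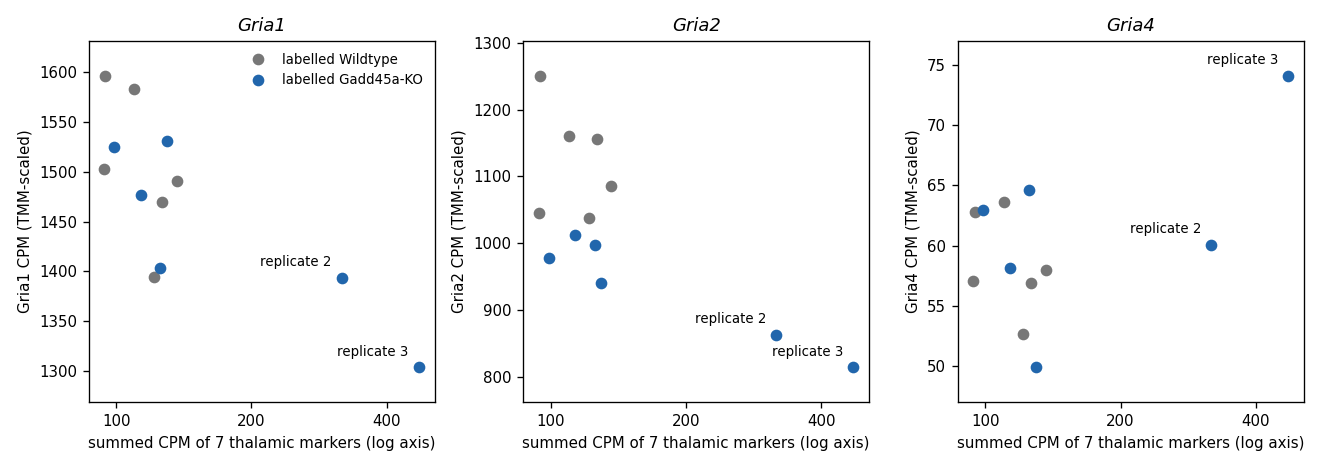
CPM of *Gria1*, *Gria2* and *Gria4* (vertical axes, not starting at 0) are plotted against the summed CPM of 7 thalamic markers (horizontal log axis), with 1 point per library coloured by label. Replicates 2 and 3 labelled Gadd45a-KO, at 318 and 472 CPM of thalamic markers, are the lowest points for *Gria2*, and replicate 3 is the highest for *Gria4*.

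The genes whose log2 CPM followed each pore subunit most closely were sought among the 16398 other tested genes. These correlations too were taken over all 12 libraries after the mean of each label had been removed. For *Gria2* they were *Slitrk3* (r = 0.96), *BC031353* (r = 0.96) and *Pde10a* (r = 0.95). *Gria3* was nearest to the calcium release channel genes *Itpr1* (r = 0.97) and *Ryr3* (r = 0.96) and to *Lphn3* (r = 0.96). *Gria1* had *Gm17593* (r = 0.95), *Rab43* (r = 0.92) and *1110018G07Rik* (r = 0.91), and *Gria4* had *Phactr2* (r = 0.97), *Sptlc2* (r = 0.95) and *Dpp10* (r = 0.95).

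Genes that act around the receptor were taken from lists of other auxiliary subunits, of assembly factors and other membrane or extracellular partners, of scaffolds, trafficking proteins and kinases, and of RNA editing enzymes. Of 46 genes listed 45 were matched and 44 passed the filter on low counts. By edgeR 0 of these 44 passed 1% FDR in either direction, 2 had an unadjusted p under 0.05 (*Frrs1l* and *Akap5*), against 13.7% of all tested genes, and 1 passed 5% FDR, where 4.43% of all tested genes were called lower. DESeq2 called 1 (*Frrs1l*, adjusted p = 0.000492), with 3.77% of its genes called lower. The steps of the original DESeq called 0, with 1.54%. Log2 fold changes were below 0 for 23 and above 0 for 21, with a median of -0.0061 and a range from -0.25 to 0.22, beside the median of 0.0033 for all tested genes.

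*Frrs1l*, an endoplasmic reticulum protein needed to assemble AMPA receptors, came nearest to the threshold among the 18 genes for assembly and membrane partners. It ranged from 520 to 626 CPM (median 568) in the libraries labelled Wildtype and from 470 to 516 CPM (median 490) in those labelled Gadd45a-KO. As for *Gria2*, the labels did not overlap. Among the 44 tested related genes this held for 1, against 3.12% of all tested genes in this direction. The log2 fold change of *Frrs1l* was -0.22 (SE 0.05, edgeR adjusted p = 0.0122). It was -0.19 (edgeR adjusted p = 0.0892) without the pair of libraries rich in thalamic markers. With the exon length offset it was -0.18 (edgeR adjusted p = 0.0405), and with the replicate block added -0.18 (edgeR adjusted p = 0.0869). *Frrs1l* passed 1% FDR in 1 of the 12 fits that left out a library, that without Wildtype replicate 1 (edgeR adjusted p = 0.00622).

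*Akap5*, which tethers kinases and the phosphatase calcineurin near the receptor, had the largest log2 fold change in size among the 14 scaffold, traffic and kinase genes, with 82.7 to 106 CPM (median 88.0) in the libraries labelled Wildtype and 65.95 to 86.7 CPM (median 77.8) in those labelled Gadd45a-KO. The log2 fold change of -0.25 (edgeR adjusted p = 0.0960) did not pass, and the labels overlapped. Without the pair of libraries rich in thalamic markers the log2 fold change of *Akap5* was -0.15 (edgeR adjusted p = 0.436). *Arc*, an immediate early gene whose protein promotes receptor endocytosis, spanned 77.2 to 102 CPM in the libraries labelled Wildtype and 57.0 to 110 CPM in those labelled Gadd45a-KO, with a log2 fold change of -0.11 (edgeR adjusted p = 0.793). All 12 mice had been trained, so an effect of training on *Arc* cannot be read from these levels.

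Of the 3 editing genes, *Adarb1*, which encodes the ADAR2 enzyme that edits the *Gria2* Q/R codon shown above, had 228 to 270 CPM (median 245) in the libraries labelled Wildtype and 226 to 384 CPM (median 255) in those labelled Gadd45a-KO. The high values of 312 and 384 CPM were those of replicates 2 and 3, the libraries rich in thalamic markers. The log2 fold change of *Adarb1* was 0.17 (edgeR adjusted p = 0.555) with them and -0.02 without them. *Adarb2*, its relative without known editing activity, had a log2 fold change of 0.03 (edgeR adjusted p = 0.943), and -0.06 without them. Among the 9 tested relatives of the auxiliary subunits, *Cacng5* had 0.22 (edgeR adjusted p = 0.520), which was 0.11 without replicate 3 labelled Gadd45a-KO and 0.06 without replicates 2 and 3, and *Gsg1l* -0.14 (edgeR adjusted p = 0.653). *Vwc2*, an extracellular partner at 2.62 to 4.55 CPM, had 0.10 (edgeR adjusted p = 0.845), and -0.07 without that pair of libraries.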

How the data were processed

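Hippocampal poly(A) RNA from 12 mice was sequenced by the authors with a stranded kit, aligned with TopHat 1.4.1 to NCBIM37/mm9 and counted per Ensembl gene with the htseq-count tool of HTSeq 0.5.4p3 on the reverse strand. The deposited values are raw read counts, 1 file per library, without normalization or pooling. Reads outside genes, ambiguous reads and non-unique alignments were left out of totals and tests, and 24.1% to 26.3% of alignments were of these kinds. *Gria2*, *Gria3* and *Gria4* share a few exonic bases with small genes on the same strand.

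Symbols, exon lengths and loci came from an annotation of the same build, of an earlier Ensembl release than that of the authors, which held 37205 of the 37991 gene IDs. Groups were taken from the labels. Genes were filtered with filterByExpr of edgeR 4.0.16 under R 4.3.3. After TMM scaling they were tested by quasi-likelihood without covariates, with Benjamini-Hochberg adjustment over 16399 genes at 1% FDR. Each standard error is the size of the log2 fold change divided by the root of the F statistic. Log2 CPM used a prior count of 2. In the deepest library 1 read amounts to 0.0180 CPM. Within a label no 2 libraries agreed within sampling noise (chi-square per degree of freedom 9.03 to 40.8 over 30 pairs).

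Alternatives were DESeq2 1.42.0, a re-coding of the original DESeq, 5% FDR, RLE size factors, a minimum of 10 counts per library or no filter, blocking on replicate number, an exon length offset (spline with 5 degrees of freedom) with or without that block, leaving out each library, Spearman correlation and shares not divided by length. Leaving out replicates 2 and 3 labelled Gadd45a-KO was chosen after seeing the data. Procedures were tested on simulated counts, and tables and plots were made with Python 3.11.15. The members and gene lists were chosen with earlier results of these data known. The genes named are the 10 members, *Gadd45a* and, per related list, genes at 1% FDR and up to 2 others with the largest log2 fold changes in size.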

Additional observations from a re-analysis of the deposited data

Results flagged for a closer look

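Among the levels of the 10 AMPA receptor genes, *Gadd45a* and the named related genes, each taken within each label, 2 of 38 groups of 6 libraries held 1 library far from the rest. *Cacng5*, a TARP relative, stood at 30.2 CPM in replicate 3 labelled Gadd45a-KO, with the other 5 libraries of that label at 18.8 to 22.5 CPM. *Adarb2* stood at 46.5 CPM in Wildtype replicate 6, with the others of that label at 32.3 to 36.8 CPM. Chance alone singles out about 1 in 20 groups, here 1.90, and none of the 10 AMPA receptor genes was among them.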

How the results depend on the processing

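At 1% FDR the count of AMPA receptor genes called lower was 0 by edgeR and 1 with DESeq2, with the original DESeq steps, at 5% FDR (*Gria2* in these 3) and with the replicate block (*Cacng3*), and 0 in all other settings, the 12 fits without 1 library included. None was called higher in any setting. Related genes called lower numbered 0, and 1 (*Frrs1l*) with DESeq2, at 5% FDR and without Wildtype replicate 1 (0 to 1 over the fits without 1 library). Over all genes, 430 were called lower by edgeR, 661 with DESeq2, 726 at 5% FDR, 272 with the length offset, 199 without replicates 2 and 3 labelled Gadd45a-KO, and 239 to 467 over the fits without 1 library. Those called higher numbered 4, and 19 with DESeq2, 20 at 5% FDR, and 9 and 10 with the length offset without and with the block.

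Signs turned without replicates 2 and 3 labelled Gadd45a-KO for *Cacng8* (0.0060), *Cnih2* (0.0083), *Vwc2* (-0.066), *Arc* (0.031), *Adarb1* (-0.024) and *Adarb2* (-0.055), and over the fits without 1 library for *Adarb2* (range -0.00077 to 0.12) and *Vwc2* (range -0.0064 to 0.17). The median correlation among the 10 AMPA receptor genes was -0.08 in place of 0.20 without replicates 2 and 3. The cause was not tested. Without division by length, mean shares were 51.8% for *Gria1* and 10.1% for *Gria3*, 38.1%, 26.1% and 35.9% for *Cacng2*, *Cacng3* and *Cacng8*, and 85.5% and 14.5% for *Cnih2* and *Cnih3*.

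No source ties equal replicate numbers to a shared animal, litter or batch, so they were not taken as pairs. Correlations between same-numbered libraries were -0.08 to 0.26, with 5 of 6 over 0.1 and a mean of 0.14, against -0.03 for other pairs, and 3 libraries labelled Gadd45a-KO and 1 labelled Wildtype correlated best with their own number. With the replicate block 509 genes were called lower, and *Gria2* had an edgeR adjusted p of 0.0165.

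With 6 libraries per label, the 95% intervals of *Shisa9* and *Cnih3* span from -0.37 to 0.10 and from -0.35 to 0.09. *Shisa9* was the least abundant of the 10 genes, and the libraries of *Cnih3* were widely spread. The values within each interval, 0 included, were not told apart with these libraries. Exon-level coverage, editing and splice forms were not analysed here.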
